A study of Bos taurus with 90 samples.

Results

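The cumulus cells (CCs) and the oocyte of the same small antral follicle were compared in cattle. The members were 16 RNA-seq libraries out of the 90 of the whole series, namely the CC pool and the single oocyte of each of 8 small follicles, paired by the follicle number in the library titles. The other 2 small follicles were not part of the comparison, since 1 had been removed by the authors and the CC column of the other, S7, holds counts for only 1066 genes. The 8 follicles are called S1 to S6, S8 and S9 here, and their diameters were 3.1 mm in S1, 3.2 mm in S2, 3.3 mm in S3, 3.5 mm in S4, 3.6 mm in S5, 3.7 mm in S6, and 3.8 mm in both S8 and S9. The series also holds mural granulosa cells (MGCs), and medium and large follicles, from 30 follicles in all.

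The ovaries were those of Bos taurus cows from a slaughterhouse, untreated, with no age given. Follicles that looked healthy were opened one by one. From marker genes in their MGCs, the authors later classed S4, S5 and S6 as healthy and the 5 others of these 8 as unhealthy. The labels do not give this division, and it was not used for groups here. The paper states that follicles classed as unhealthy, with all their matched cells, were left out of its main developmental analyses. The present comparison kept them, so 5 of its 8 follicles lay outside those analyses. After opening, the cumulus was taken off the oocyte, and each oocyte and each CC pool went into its own SMART-seq2 library, a protocol that amplifies full-length polyadenylated RNA from very little material. Both sides of the comparison thus share the protocol, but the oocyte cDNA received more PCR cycles than the CC cDNA, so that amplification and cell type cannot be told apart. According to the methods each size class came from at least 5 animals, and the labels do not tie follicles to animals, so some of the 8 follicles may share a cow and the p-values measure the spread between follicles.

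Cumulus cells are the granulosa cells that surround the oocyte within the antral follicle. They pass metabolites and signals to the oocyte through projections that cross the zona pellucida and end in gap junctions at its surface, and the oocyte in turn releases growth factors that govern their proliferation and metabolism. The growing oocyte stores maternal RNA for the first divisions of the embryo and becomes transcriptionally quiet near the end of its growth, whereas CCs remain somatic cells that divide and transcribe. Oocyte RNA seen by sequencing is therefore a mixture of stored and recently made transcripts.

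The table lists 27270 genes by Ensembl identifier and does not pair them with names. None of the identifiers could be matched to a symbol (0 matched), so that marker genes such as those of the zona pellucida or of steroid synthesis could not be looked up. The genes are accordingly described as groups, by the cell type in which they were higher, and 4 of them by identifier.

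Total counts ranged from 8760201 (S5) to 34620362 (S2) in CCs and from 20559699 (S3) to 53173320 (S1) in oocytes. Among counts of 1 to 20, between 60.2% and 75.9% were even numbers, where single fragments counted once would give about as many odd as even values. Whether reads or fragments were counted was not stated, and the intervals given for counts cover counting error only. No pair of libraries of a type matched within sampling noise, the closest giving a chi-square per degree of freedom of 49.5 in CCs and 78.5 in oocytes.

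The number of genes with at least 1 count overlapped between the cell types. In CCs it was 11872 in S1, 16583 in S2, 16003 in S3, 16299 in S4, 14076 in S5, 15462 in S6, 14913 in S8 and 14262 in S9. In oocytes it was 15080 in S1, 13037 in S2, 15159 in S3, 14722 in S4, 15025 in S5, 15865 in S6, 10588 in S8 and 12026 in S9. The ranges overlapped, with the lowest CC value in S1 and the lowest oocyte value in S8. CCs held more genes than their own oocyte in 5 of 8 follicles, and the mean difference of 996 genes (SD 2476, n = 8) did not pass the exact sign-flip permutation test over follicle pairs (two-sided p = 0.289, the smallest possible being 0.00781). The mean difference was 1597 genes without S1, 631.7 without S2 and 520.4 without S8, none of which passed. Genes above 1 CPM (the count divided by the column total and scaled to a common total of counts) pointed the other way, with 6 of 8 oocytes above their CCs and a mean difference of -715.6 genes (CCs minus oocyte, SD 1739, exact p = 0.312). This second difference rested on single follicles, since it was -1154 genes without S8, which passed the threshold (exact p = 0.0469, oocytes higher in 6 of 7 follicles), and -267.3 genes without S1 (exact p = 0.625).

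CC libraries were more concentrated on a few genes than oocyte libraries. The 100 most abundant genes took 53.5% of the CC counts in S1, 30.5% in S2, 35.7% in S3, 28.4% in S4, 30.3% in S5, 30.4% in S6, 31.7% in S8 and 44.0% in S9. In oocytes the same share was 25.9% in S1, 22.8% in S2, 24.6% in S3, 21.7% in S4, 23.3% in S5, 22.2% in S6, 23.4% in S8 and 26.1% in S9. All 8 CC values lay above all 8 oocyte values. The means were 35.6% ± 8.78 in CCs and 23.8% ± 1.63 in oocytes (SD, n = 8), and the exact sign-flip test gave p = 0.00781, the smallest that 8 pairs allow (two-sided). Without S1 and S9, whose CC libraries were the most concentrated, the mean difference fell from 11.8 to 8.17 percentage points and CCs were higher in 6 of 6 follicles (exact p = 0.0312, the smallest that 6 pairs allow). Put another way, 80 (S1) to 516 (S4) genes made up 50% of the counts of a CC library, against 541 (S9) to 765 (S4) genes in an oocyte library.

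**Figure D1:**
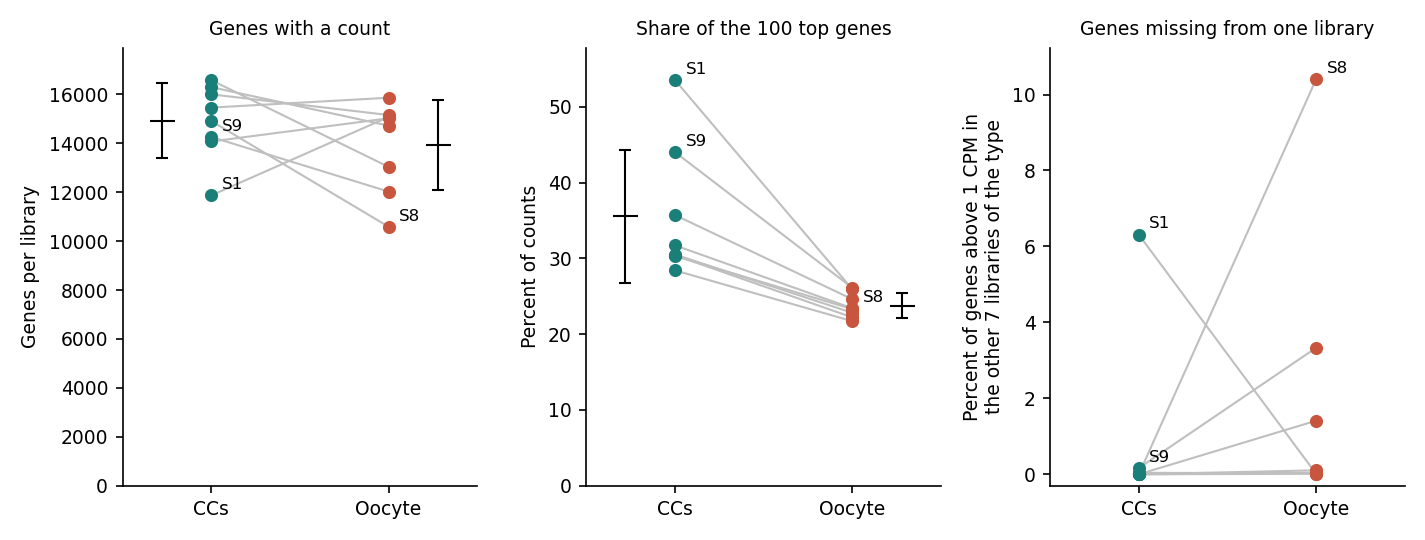
Each point is 1 library and each grey line joins the CCs and the oocyte of 1 follicle, with the number of genes that have a count (left), the percent of counts in the 100 most abundant genes (middle) and the percent of genes above 1 CPM in the 7 other libraries of the type that have no count in that library (right). Black bars in the first and second panels give the mean and SD of 8 libraries. The middle panel separates the types, with CCs from 28.4% to 53.5% and oocytes from 21.7% to 26.1%, while S1 among the CCs and S8 among the oocytes stand apart in the right panel at 6.31% and 10.4%.

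Libraries of a type shared part of their leading genes. All 8 oocytes had 49 genes in common among their 100 most abundant and 4 among their 10 most abundant. All 8 CC libraries had 22 genes in common among their 100 most abundant, and the 6 CC libraries other than S1 and S9 had 52. Between the types, 13 genes were in both lists when the 100 most abundant genes were taken by mean CPM.

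Rank correlations across the tested genes grouped the libraries by cell type. They are descriptions, since genes are not independent and libraries differ in depth. Between CCs and oocytes Spearman's rho lay between 0.370 and 0.462 in different follicles (56 pairs) and between 0.399 and 0.458 within the same follicle (8 pairs), and both ranges overlapped. Among CCs the median rho was 0.932 and among oocytes 0.890 (28 pairs each). S1 was the CC library least like the others, at 0.762 to 0.881, and its highest value was with S9, which lay at 0.828 to 0.881. The 6 other CC libraries correlated at 0.928 to 0.975. Among oocytes S8 was the least like the others, at 0.787 to 0.836.

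**Figure D2:**
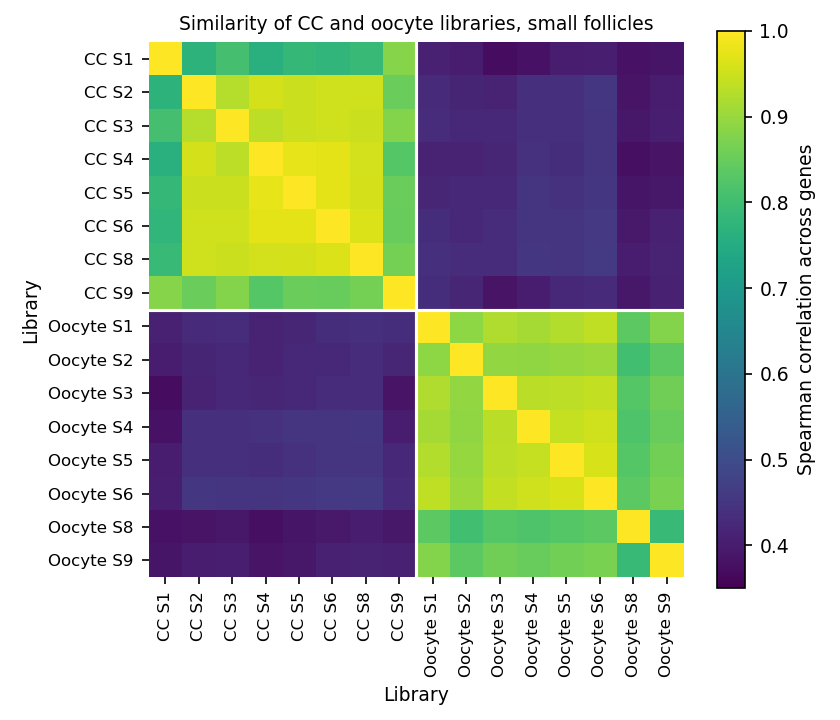
Spearman correlation of log2(CPM + 1) across the 14433 tested genes for each pair of the 16 libraries, with CCs first and oocytes second and the follicle named after the type. The off-diagonal blocks, CCs against oocytes, hold values from 0.370 to 0.462, and the rows of S1 and S9 in CCs and of S8 in oocytes hold lower values than their neighbours of the same type.

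Single libraries lacked genes that the rest of their type expressed. Of 9345 genes above 1 CPM in the 7 other CC libraries, 590 had no count in the CCs of S1, which is 6.31%. In the 7 remaining CC libraries this share was at most 0.163% (S9). The sets were smaller there (7968 genes for S9, 7770 to 7794 for the rest), since each gene had to pass 1 CPM in S1. Genes that such a library and S1 both lacked were therefore not counted for it. Those 590 genes averaged a median of 8.67 CPM in the other CCs and up to 143 CPM, and 95 of them also had no count in the oocyte of S1. In oocytes, 926 of 8913 genes, or 10.4%, had no count in S8 although above 1 CPM in the 7 other oocytes, with a median of 11.2 CPM there. The share was 3.33% in S9, 1.41% in S2 and at most 0.104% in the 5 other oocytes. Their sets were smaller too, with 8194 genes for S9 and 7891 for S2, as each gene had to pass 1 CPM in S8. The S8 oocyte held 44993182 counts in total, more than 6 of the 7 other oocytes. The CCs of S1 held 31532236, more than 6 of the 7 other CC libraries. Why genes were missing from these libraries was not tested. What part these libraries have in the gene results was not tested beyond the fits that leave them out.

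The main comparison asked which genes differ between CCs and the oocyte that they enclose. Counts of the 14433 genes above 1 CPM in at least 4 of the 8 libraries of either type were fitted with edgeR's quasi-likelihood model, with the follicle as a block. A gene was called when its Benjamini-Hochberg adjusted p was under 0.05 and its fold change above 2. Of the tested genes 8217 were called, or 56.9%. Higher in CCs were 3733 genes (25.9% of those tested), and higher in oocytes were 4484 genes (31.1%). Since values are relative to all the RNA in a library, a gene that is higher in CCs takes a larger part of the CC RNA, and in these pools fewer cells of a kind and less RNA per cell cannot be told apart. The median log2 fold change of all tested genes was -0.13 (CCs minus oocyte), and it moved to 0.10 with DESeq2's size factors (RLE) and to -0.41 with column totals alone, so that folds are best read relative to that median.

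**Figure D3:**
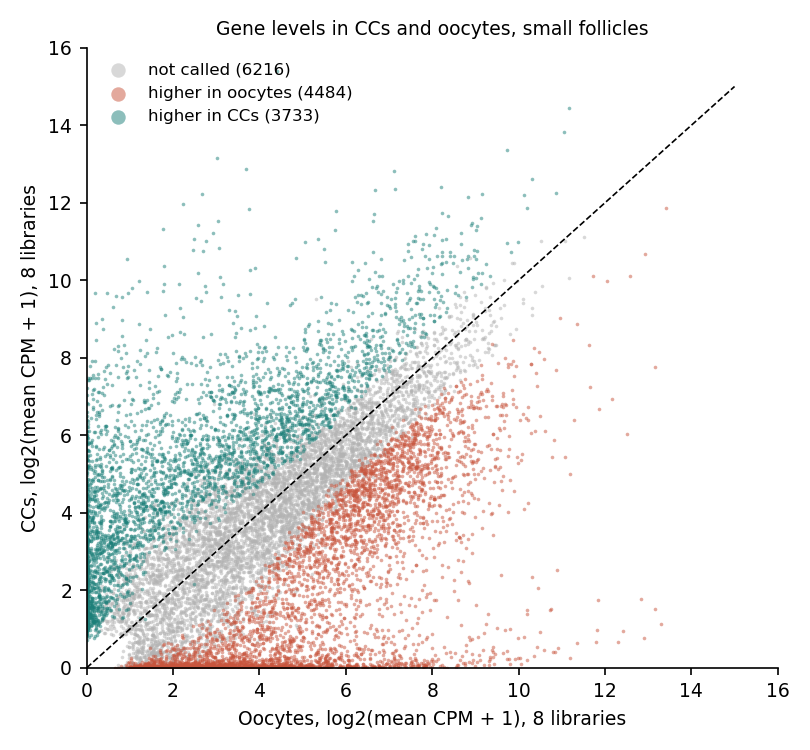
Mean level of each of the 14433 tested genes in the 8 oocyte libraries (horizontal axis) and the 8 CC libraries (vertical axis), both as log2(mean CPM + 1), with 3733 genes called higher in CCs, 4484 called higher in oocytes and 6216 not called; the dashed line marks equal levels. Genes near either axis were almost absent from the other cell type.

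The genes higher in CCs were mostly far higher. Their median log2 fold change was 4.66, and 2558 of them (68.5%) exceeded 3 on the log2 scale and 1758 (47.1%) exceeded 5. The median and both counts were the same with genes of no count in oocytes at the lower bound from 3 counts over the group. The filter at 1 CPM made this all but certain, so it is no check of the folds. Their median level was 34.5 CPM in CCs and 2.52 CPM in oocytes. At 100 CPM or more in CCs were 976 of these genes, and at 1000 CPM or more were 120. A total of 367 had no count in any of the 8 oocytes, none of which reached 100 CPM in CCs (0 genes). They took between 62.8% (S4) and 75.2% (S1) of all counts in CC libraries and between 9.15% (S8) and 11.8% (S2) in oocyte libraries.

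The genes higher in oocytes showed folds of a similar size with lower levels in the opposite cell. Their median log2 fold change was -4.73, and 2991 of them (66.7%) exceeded 3 in size and 2144 (47.8%) exceeded 5. The values were again the same at the lower bound, with the same limit from the filter. Their median level was 39.9 CPM in oocytes and 1.24 CPM in CCs. At 100 CPM or more in oocytes were 1303 of these genes, and at 1000 CPM or more were 72. A total of 385 had no count in any of the 8 CC libraries, and 6 of these averaged at least 100 CPM in oocytes. They took between 58.7% (S2) and 62.9% (S8) of all counts in oocyte libraries and between 4.43% (S1) and 8.11% (S6) in CC libraries.

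The most abundant transcripts of each cell were mostly among its called genes. Of the 100 genes with the highest mean CPM in CCs, which spanned 1298 to 43440 CPM, 91 were called higher in CCs, 2 were called higher in oocytes and 7 were not called. Their median level in oocytes was 284 CPM, and 1 of them was below 1 CPM there. Of the 100 most abundant genes in oocytes, which spanned 931 to 10980 CPM, 80 were called higher in oocytes, 7 were called higher in CCs and 13 were not called. Their median level in CCs was 84.7 CPM, and 21 of them were below 1 CPM there. Both lists were chosen by levels that also enter the calls, so these counts are partly built in. Over all tested genes 25.9% were called higher in CCs and 31.1% higher in oocytes.

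Genes at like levels in both cells could be bounded only in part. For 466 of the 14433 genes (3.23%) the 95% interval of the difference lay within 2-fold in either direction, and these genes had median levels of 78.3 CPM in CCs and 94.9 CPM in oocytes. Another 5750 genes were not called but had wider intervals, so a difference of 2-fold or more was not excluded for them. The median SE of the log2 fold change was 0.917.

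The separation of the libraries differed in the 2 directions by how CPM was scaled. Over all tested genes the 8 CC values and the 8 oocyte values did not overlap in 4680 genes, or 32.4%. This held for 1733 (46.4%) of the genes called higher in CCs and 2825 (63.0%) of those called higher in oocytes. With library sizes scaled by TMM factors, which were 0.4265 in the CCs of S1, 0.574 in the CCs of S9 and 0.898 to 1.292 in the other 14 libraries, the counts became 2197 (58.9%) and 2519 (56.2%), so the order of both shares turned round. Over all tested genes this scaling gave 2256 genes without overlap that were higher in CCs and 2547 that were higher in oocytes. In all 8 follicles the direction was the same for 2494 (66.8%) of the genes higher in CCs and 3348 (74.7%) of those higher in oocytes by CPM, and for 2855 (76.5%) and 3138 (70%) after TMM scaling. The calls came from the same 8 pairs, so this agreement is partly built in, and its share over all tested genes is not given here.

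The 4 genes given here are those with the largest difference in each direction among called genes at 100 CPM or more with no overlap. They were chosen by the values given below. Their folds, counts near 0 and p-values are thus extremes of the list and no separate support. ENSBTAG00000005745 measured 47.6 CPM in the CCs of S1, 212 in S2, 37.5 in S3, 248 in S4, 102 in S5, 235 in S6, 130 in S8 and 25.3 in S9, against 1 count in the oocyte of S6 and 0 counts in the 7 other oocytes. All 8 CC libraries were high and all 8 oocytes were at or next to 0, with S9 and S3 lowest among the CCs. Over the pooled libraries the ratio was 36900, with an exact 95% counting interval from 6620 to 1460000, and the fitted log2 fold change was 14.10 ± 0.61 (SE; edgeR quasi-likelihood, adjusted p = 3.32e-07).

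ENSBTAG00000000603 was more even among follicles. Its CC level was 83.0 CPM in S1, 197 in S2, 144 in S3, 127 in S4, 138 in S5, 174 in S6, 180 in S8 and 134 in S9 (mean 147 ± 36.0, SD, n = 8), and the oocytes held 2 counts, both in S2. The pooled ratio was 20000 with an interval from 5530 to 165000, and the fitted log2 fold change was 14.06 ± 0.71 (SE; edgeR, adjusted p = 3.32e-07).

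ENSBTAG00000052223 was an oocyte transcript with 0 counts in every CC library of the 8 small follicles. In oocytes it measured 306 CPM in S1, 163 in S2, 179 in S3, 317 in S4, 510 in S5, 302 in S6, 443 in S8 and 385 in S9 (mean 326 ± 120, SD, n = 8). With 3 counts over the 203143248 counts of the 8 CC libraries as the limit that a count of 0 allows if counts are independent, it was at least 22800-fold higher in oocytes (edgeR adjusted p = 8.88e-05).

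ENSBTAG00000014523 likewise had 0 counts in all 8 CC libraries. Its oocyte level was 89.0 CPM in S1, 214 in S2, 105 in S3, 186 in S4, 143 in S5, 125 in S6, 217 in S8 and 91.4 in S9 (mean 146 ± 53.1, SD, n = 8). It was at least 9830-fold higher in oocytes on the same limit (edgeR adjusted p = 0.000166).

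**Figure D4:**
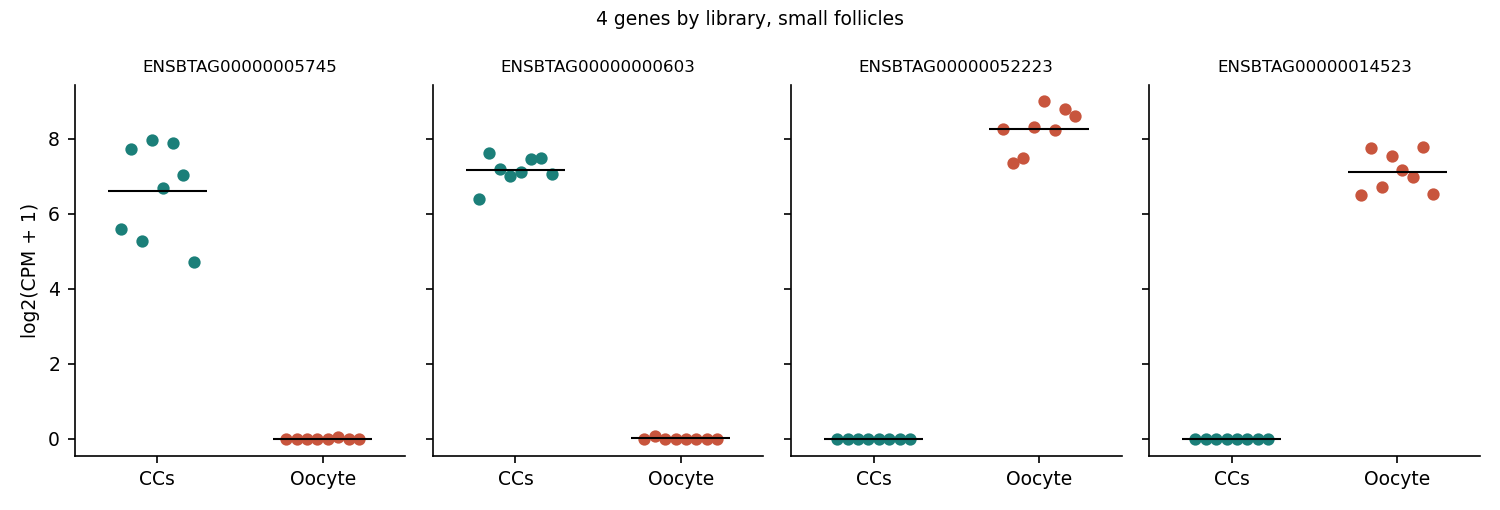
Level of the 4 genes in each library as log2(CPM + 1), with 1 point per follicle in the order S1 to S9 from left to right and a black line at the mean of the 8 values. The 2 genes on the left are at or next to 0 in all 8 oocytes, and the 2 on the right are at 0 in all 8 CC libraries.

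The direction of the calls was then read in a follicle that had not entered the fit. Each follicle was left out in turn, genes were called in the 7 others, and the CPM of the CCs and the oocyte of the follicle left out were compared. Genes with no count in either library of that follicle were not taken as the same, so the remainder was not all reversed. The share of all tested genes with each direction in that follicle is not given here. For genes called higher in CCs, the direction was the same for 97.1% in S3, 98.8% in S4, 98.4% in S5, 98.1% in S6, 96.4% in S8 and 94.4% in S2, but for 87.3% in S9 and 68.2% in S1. For genes called higher in oocytes it was the same for 97.8% in S1, 98.6% in S3, 98.1% in S4, 98.5% in S5, 99.5% in S6 and 91.3% in S2, but for 88.2% in S9 and 78.6% in S8. The lowest value in each direction was in the follicle whose library of that type lacked the most genes, the CCs of S1 and the oocyte of S8. In S9, which was low in both directions, the CCs lacked 0.163% and the oocyte 3.33% of such genes. Those sets leave out the genes that did not pass 1 CPM in the CCs of S1 or the oocyte of S8. With TMM-scaled CPM the value of S1 for CC genes became 77.7% and that of S8 for oocyte genes 77.3%. Those of S9 became 92.5% for CC genes and 84.7% for oocyte genes. Why the values of these follicles were lower was not tested.

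**Figure D5:**
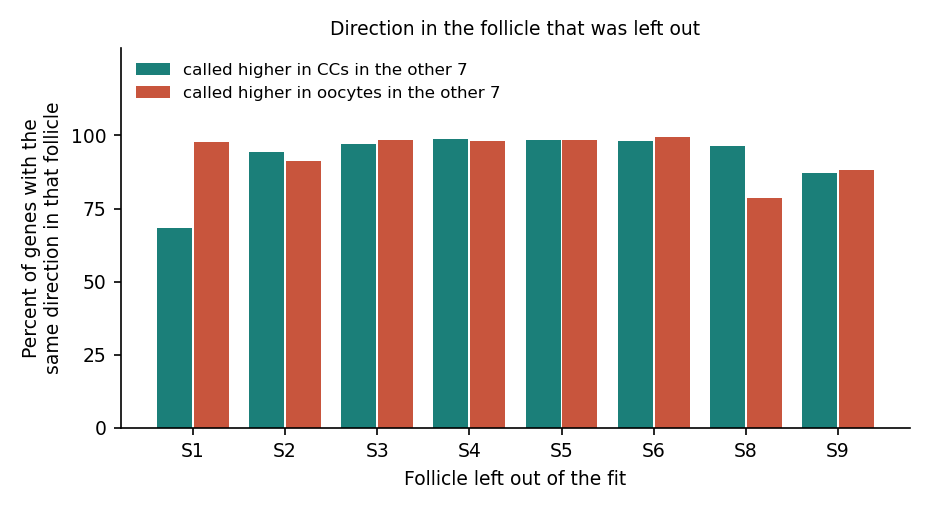
For each follicle left out of the fit, the percent of genes called in the 7 other follicles whose CPM differed in the same direction in that follicle, for genes called higher in CCs (left bar) and in oocytes (right bar). The bars run from 68.2% to 98.8% for CC genes, lowest in S1, and from 78.6% to 99.5% for oocyte genes, lowest in S8.

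Fits on fewer follicles gave similar counts except in 1 set. The follicle numbers begin with 3 digits whose meaning the labels do not state, and 2 of these prefixes hold 3 follicles each. Follicles S4, S5 and S6 alone, which are also those classed as healthy by the authors, gave 4106 genes higher in CCs and 4458 higher in oocytes. Follicles S1, S3 and S8 alone, which include both libraries with the most missing genes, gave 605 and 761, all of them (1366) called in the same direction in the full comparison. Without S1 and S9 the fit gave 4004 and 4150 genes. No gene was called in the opposite direction (0) in any of these 3 fits. Their libraries are part of the full comparison, so this agreement is partly built in. Why S1, S3 and S8 gave fewer genes was not tested.

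Spread between follicles within a type moved with the same libraries. Among genes with a mean of at least 10 CPM, the median SD of log2(CPM + 1) was 0.838 in the 8 CC libraries and 0.611 in the 8 oocytes. Without S1 and S9 it was 0.431 in CCs, and without S8 it was 0.541 in oocytes.

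The difference between CCs and oocytes was also set beside that of larger follicles. Among 8 medium follicles 4952 genes were higher in CCs (33.5% of 14768 tested) and 5139 were higher in oocytes (34.8%). Among 10 large follicles 4873 genes were higher in CCs (33.3% of 14628) and 5289 were higher in oocytes (36.2%). Of the genes called higher in CCs in small follicles, 93.3% had the same call in medium and 92.6% in large follicles, which is 70.4% and 71% of the lists of those stages. Of the genes called higher in oocytes, 90.3% and 91.6% had the same call, or 78.8% and 77.6% of the lists of medium and large follicles. No gene had opposite calls between the stages (0).

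Genes called in both larger stages and not in small follicles mostly had the same sign there. This was so for 982 of 1000 genes higher in CCs, with medians on the log2 scale of 1.78 for small follicles, 1.98 for medium ones and 2.08 for large ones. It was so for 649 of 665 genes higher in oocytes, with medians of -1.55, -1.89 and -1.98 in the same order. The median SE of the CC genes was 1.12 in small follicles against 0.421 in medium and 0.455 in large ones. Conversely, 138 CC genes and 228 oocyte genes were called in small follicles and in neither other stage. Some of them may not have been tested there. Of the genes called in small follicles, 3649 CC genes and 4386 oocyte genes were tested in medium follicles, and 3615 and 4350 in large ones.

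The difference between stages was tested itself, as an interaction of cell type with stage over the CC and oocyte libraries of all 3 stages. Of 15426 genes, 0 (0%) were called for a changed CC to oocyte difference between small and medium follicles (edgeR quasi-likelihood, adjusted p under 0.05 and a change above 2-fold). Genes not called may still differ, since the median SE of the log2 fold change was 0.917 in small and 0.436 in medium follicles. With an unadjusted p under 0.05 and the same limit on the change there were 890 genes, and no other tool was run on this. If no gene differed, chance alone would bring about 0.05 of all genes under that p. Between small and large follicles 2 genes (0.013%) were called, both with a more negative value in large follicles. The first averaged 21.6 CPM in CCs and 57.9 CPM in oocytes of small follicles against 15.9 and 143 CPM in large ones, a change of -1.83 ± 0.32 on the log2 scale (SE, adjusted p = 0.0442). The second averaged 38.3 and 156 CPM in small follicles against 22.4 and 235 CPM in large ones, a change of -1.58 ± 0.28 (adjusted p = 0.0442). For large follicles the same test called 1 gene without S1 and S9, 0 genes with column totals and 94 genes without the follicle block, and for medium follicles it called 11 genes without the block, which leaves the pairing of CCs and oocyte unused.

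The 4 genes given by identifier kept their direction in the larger follicles. ENSBTAG00000005745 averaged 103 CPM in CCs of medium and 98.7 CPM in CCs of large follicles, with 0.00706 and 0.0179 CPM in oocytes. ENSBTAG00000000603 averaged 166 and 121 CPM in CCs, with 0.205 and 0.00273 CPM in oocytes. ENSBTAG00000052223 averaged 214 and 289 CPM in oocytes and 0.0974 and 0.0740 CPM in CCs, where small follicles had 0 counts. ENSBTAG00000014523 averaged 197 and 221 CPM in oocytes, with 0.102 and 0.118 CPM in CCs. None of the 4 passed the interaction test in either stage (0 genes; the lowest adjusted p was 0.0820, for ENSBTAG00000000603 in medium follicles).

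The larger follicles also gave gene sets with which to check the labels of the small libraries, chosen without their values. A total of 214 genes were at 50 CPM or more in all 18 oocytes of medium and large follicles with a median under 1 CPM in the 18 CC libraries, and 43 genes showed the opposite pattern. In small follicles the oocyte genes took 10.0% (S2) to 12.3% (S1) of oocyte counts and 0.00344% (S9) to 0.0154% (S2) of CC counts. The CC genes took 0.556% (S1) to 1.37% (S8) of CC counts and 0.000924% (S3) to 0.00467% (S2) of oocyte counts. All 16 libraries thus followed their labels as CCs or oocytes by a wide margin. The CC genes were chosen against oocytes only, so they cannot tell CCs from MGCs. All 43 were also above 1 CPM in every MGC library from the same small follicles. In the CCs of S2, 48 of the 214 oocyte genes were above 1 CPM, against 7 to 21 in the 7 other CC libraries, and their part in the results was not tested.

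The MGCs of the same follicles, which line the follicle wall, were read for the same genes. Their libraries were standard bulk RNA-seq rather than SMART-seq2, so levels are not compared with those of CCs or oocytes. A mean above 1 CPM in the 8 matched MGC libraries was found for 3559 (95.3%) of the genes higher in CCs, for 5756 (92.6%) of the genes not called and for 2791 (62.2%) of the genes higher in oocytes, against 83.9% of all tested genes. The median MGC level was 37.4 CPM for the genes higher in CCs and 4.4 CPM for those higher in oocytes.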

How the data were processed

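The deposited values are counts per gene, listed by Ensembl identifier, and the authors did not normalize them. Per the methods the authors trimmed paired-end reads, aligned them to the bovine genome with STAR, kept uniquely mapped reads and counted over exons with featureCounts, whereas the submitters' processing notes name HISAT2 2.2.1, and which aligner made the table was not settled. No strand setting was stated.

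CPM used column totals, and all 90 columns were mapped (0 were left over). The counts were fitted by the quasi-likelihood method of edgeR 4.0.16 (under R 4.3.3), with TMM factors and the follicle as a block, since both libraries come from 1 follicle. The deviations of a CC library and its own oocyte from their type means correlated at -0.0607 to 0.235, and 3 of 8 CC libraries correlated best with their own oocyte. Single values per library were tested by exact sign flips in Python 3.11.15. Alternatives were DESeq2 1.42.0, other scalings, filters and follicles. Both tools were first run on simulated data with known fold changes. In these few genes differed, evenly in both directions, without a follicle effect or libraries that lacked genes. The simulation therefore does not show how the tools fare on the present libraries.

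The 4 identifiers followed a rule of size, non-overlap and at least 100 CPM. The members and lists were chosen with earlier results of these data known. Planned gene lists and cell type markers were not run because no symbols could be matched.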

Additional observations from a re-analysis of the deposited data

Results flagged for a closer look

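The share of genes missing from the CC library of S1, 6.31% of the genes above 1 CPM in the 7 other CC libraries, lay far from the other 7 values, the next being 0.163%. The share missing from the oocyte of S8, 10.4%, lay far from those of the 7 other oocytes, the next being 3.33%. Both gaps rest on unlike sets of genes, 9345 for the CCs of S1 against 7968 for S9, and 8913 for the oocyte of S8 against 8194 for S9. The sets of the other libraries leave out genes that S1 or S8 lacked. The number of oocyte genes above 1 CPM in the CCs of S2, 48 of 214, lay far from the 7 to 21 of the other CC libraries. Each was found by comparing the gap of the outermost library with the range of its group in 20 groups of 8 libraries, and chance alone picks out about 1 in 20 groups.

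For 2 genes the difference between CCs and oocytes itself differed between small and large follicles in the interaction test. The causes of these 4 values were not tested.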

How the results depend on the processing

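The counts of genes higher in CCs and in oocytes stayed within 1.5 times the main values in 18 of 19 alternatives each. The exception was the fit on S1, S3 and S8 alone, with 605 and 761. DESeq2 gave 4958 and 4579, RLE size factors 4127 and 4185, column totals 3279 and 4871, no filter 3990 and 4347, edgeR's filterByExpr 3499 and 3478, a test against a 2-fold change 3146 and 3822, and the removed follicle added as a pair 4546 and 4038. Without the replicate block, that is unpaired, the counts were 3950 and 4724. Leaving out each follicle in turn gave 3394 to 4174 genes higher in CCs and 3835 to 4595 higher in oocytes. No gene was called in the opposite direction (0) in any of these fits, which share libraries with the main fit, so this agreement is partly built in. The 4 genes given by identifier kept their calls in 19 of 19 alternatives, with adjusted p up to 0.0177.

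The mean difference in genes with a count ranged from 520.4 to 1597 when each follicle was left out and turned to -715.6 with the limit of 1 CPM, and it passed the exact test in none of its 10 alternatives (0). At that limit it was -1154 without S8, which passed, and between -867.7 and -267.3 without each other follicle. The difference in the share of the 100 most abundant genes ranged from 9.557 to 12.54 percentage points when single follicles were left out, was 8.167 without S1 and S9, and was 6.55 for the 10 most abundant. The interaction with stage gave 11 genes for medium and 94 for large follicles without the block, 0 for large follicles with column totals and 1 without S1 and S9. The causes were not tested. The comparisons without S1 and S9 of the values per library, those on TMM-scaled CPM, and those that leave out a follicle at the limit of 1 CPM were chosen after the data were seen. Depth limits the CCs of S5 most, at 8760201 counts, where 3 counts are 0.342 CPM.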
